A study of Mus musculus with 10 samples.

Results

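The Gadd45 family comprises 3 genes, Gadd45a, Gadd45b and Gadd45g, and its transcripts were followed in mouse liver with and without Pml after a short fast. Members were taken by gene symbol from the array's platform table. Of the 41345 probe sets, 3 named a member. Gadd45b and Gadd45g had 1 probe set each. The single probe set that named Gadd45a also named E230016M11Rik, a long non-coding RNA gene on the opposite strand that overlaps Gadd45a over 809 bases in the RefSeq annotation. Its signal therefore could not be assigned to Gadd45a alone, and it is called the shared probe set.

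Liver RNA came from female BALB/cByJ mice aged 3 months and was hybridised to 10 Affymetrix arrays of the type Mouse Gene 2.1 ST. The groups were Pml knockout with food removed for 6 h (3 arrays), Pml wild type with food removed for 6 h (3), Pml knockout fed ad libitum (2) and Pml wild type fed ad libitum (2). The mice had free access to water under specific pathogen free conditions, and feeding state was taken from the sample titles. The labels used here name neither the knockout allele, nor the hour at which livers were taken, nor the animal behind each array. The p values therefore cover only the spread among these arrays, which may in part be technical.

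GADD45 proteins are small nuclear proteins without a known enzymatic activity of their own. They act by binding: they activate the kinase MAP3K4 upstream of p38 and JNK, contact the replication clamp PCNA, the cell cycle inhibitor p21 and the CDK1 and cyclin B1 complex, and have been linked to active DNA demethylation. Gadd45a is a classical p53 target, Gadd45b is a target of NF-kB and TGF-beta signalling, and Gadd45g was found as a cytokine-responsive gene. In mouse liver, Gadd45b is known to be induced by fasting and during regeneration, and its protein has been tied to the handling of fatty acids through the fatty acid binding protein FABP1.

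The promoters of the 3 genes are shown as description only, and a link of their letters to the array values was not tested. The shared signal could not be assigned to Gadd45a, and the promoter of E230016M11Rik is not shown. Sequences are from RefSeq (GRCm38.p6), 300 bases each, from 250 bases before to 50 bases after the annotated start site, read 5′ to 3′ on the strand of the gene. Capitals mark matches to CACGTG, the E-box bound by clock factors, and to CCAAT, the CCAAT box.
Gadd45b, chr10:80929841-80930140, plus strand: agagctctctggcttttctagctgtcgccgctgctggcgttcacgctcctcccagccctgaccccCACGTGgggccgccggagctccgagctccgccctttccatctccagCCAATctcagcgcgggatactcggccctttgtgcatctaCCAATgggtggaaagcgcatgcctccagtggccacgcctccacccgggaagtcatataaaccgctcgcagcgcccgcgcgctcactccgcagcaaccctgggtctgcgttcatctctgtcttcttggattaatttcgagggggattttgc
Gadd45g, chr13:51846425-51846724, plus strand: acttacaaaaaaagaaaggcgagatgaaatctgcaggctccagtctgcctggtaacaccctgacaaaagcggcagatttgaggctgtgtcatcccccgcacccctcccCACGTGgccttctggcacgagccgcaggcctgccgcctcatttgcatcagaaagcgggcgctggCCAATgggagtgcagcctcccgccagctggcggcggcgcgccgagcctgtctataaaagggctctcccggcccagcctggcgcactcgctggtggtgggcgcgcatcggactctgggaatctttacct
Gadd45a, chr6:67037358-67037657, minus strand: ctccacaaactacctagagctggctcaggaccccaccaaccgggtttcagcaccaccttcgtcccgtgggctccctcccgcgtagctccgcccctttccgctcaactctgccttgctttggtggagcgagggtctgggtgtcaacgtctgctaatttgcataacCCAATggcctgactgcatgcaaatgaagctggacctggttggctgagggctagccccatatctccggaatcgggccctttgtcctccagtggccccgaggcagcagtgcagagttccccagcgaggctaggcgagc

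CACGTG occurred at -185 to -180 from the start site in the Gadd45b window and at -142 to -137 in the Gadd45g window. It had 0 matches in the Gadd45a window. Of all 32851 RefSeq promoter windows of this length, 7.15% held it. CCAAT had 2 matches in Gadd45b, 1 in Gadd45g and 1 in Gadd45a, against 37.4% of all windows with a match. The search covered both strands, and the matches did not overlap. The D-box TTATGTAA (0.938% of windows), the forkhead motif GTAAACA (3.65%), the AP-1 motif TGANTCA (7.81%), the cAMP element TGACGTCA (1.79%) and the palindromic glucocorticoid element (0.00913%) had 0 matches in the 3 windows. A match describes these letters and says nothing of binding in these livers, and the motifs were chosen with earlier results of these data known.

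Array medians lay between 43.5 and 47.5 intensity units, and the median of each array served as a floor for dim signals. Pml, the gene removed, had 6.05 to 6.35 in fasted knockout, against 7.50 to 8.13 in fasted wild type, and 6.41 and 6.91 in fed knockout, against 8.22 and 8.37 in fed wild type (log2 intensity). All 8 hepatocyte markers lay above the array median on every array. Fasted knockout replicates 1 and 2 stood apart from replicate 3 by several clock genes, though not by all. Arntl, which encodes the clock activator BMAL1, was 4.60 and 4.54 on replicates 1 and 2 and 8.87 on replicate 3. For a clock score, each gene was centred on its own mean over the 10 arrays. Per1, Cry2, Hlf, Bhlhe40 and Bhlhe41 were tested but were not part of the score. The score was the mean of Arntl, Clock, Npas2, Cry1 and Nfil3 minus the mean of Dbp, Nr1d1, Nr1d2, Per3, Tef and Ciart. It was -2.47, -2.22 and 2.55 in fasted knockout and 2.32 to 2.96 in fasted wild type. In fed livers it was -1.93 and -1.90 in knockout, against -0.75 and -1.18 in wild type. In wild type the score divided fasted from fed arrays completely, as did the values of 52.7% of all genes. Feeding cannot be told apart there from the state of the clock. Values below are log2 intensities, and differences are log2 differences from a limma fit to all 10 arrays with the standard error (SE), called at a Benjamini-Hochberg adjusted p under 0.05.

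Gadd45b was higher after the fast in both genotypes, and fasted knockout livers reached a lower level than fasted wild type livers. Fasted knockout arrays read 7.75, 9.18 and 9.42 for replicates 1, 2 and 3, and fasted wild type arrays 10.58, 10.62 and 10.33. Fed knockout arrays read 6.31 and 6.28, and fed wild type arrays 5.44 and 6.14. Every fasted array lay above every fed array, every fasted knockout array lay below every fasted wild type array, and fasted knockout replicate 1 was the lowest of the fasted arrays. As geometric means of intensity, Gadd45b stood at 441 units in fasted knockout, against 1457 in fasted wild type, and at 78.7 units in fed knockout, against 55.2 in fed wild type. In a bulk sample, more RNA per cell and more cells with the RNA cannot be told apart.

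In wild type liver Gadd45b averaged 10.51 ± 0.16 fasted (SD, n = 3) and 5.79 ± 0.50 fed (SD, n = 2). The rise was 26.4-fold (log2 4.72, SE 0.42, adjusted p = 0.000313), the 6th highest difference among 13942 genes. Fed wild type replicate 1 lay just below its array median, so this fold and rank rest in part on a reading at the floor. Both genes with a probe set of their own were called higher there, Gadd45b and Gadd45g, where 8.23% of all genes were called higher. Groups did not overlap for 52.7% of all genes. The call of Gadd45b held under all 22 alternative settings, with differences between 4.03 and 5.07.

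In knockout liver Gadd45b averaged 8.78 ± 0.90 fasted (SD, n = 3) and 6.30 ± 0.02 fed (SD, n = 2). The rise was 5.60-fold (log2 2.49, SE 0.42, adjusted p = 0.0323), the 4th highest of all genes. It was the 1 call among the 2 genes, where 0.811% of all genes were called higher, and arrays of 36.8% of all genes did not overlap. The size moved little between settings (2.17 to 3.12), while the call depended on single arrays. Leaving out fed knockout replicate 1 gave an adjusted p of 0.106 and leaving out replicate 2 gave 0.194. Omission of fasted wild type replicate 2 or 3 gave 0.0519 or 0.0559, and omission of fasted knockout replicate 2 or 3 gave 0.0649 or 0.0780. Wild type arrays enter this comparison only through the spread that the fit shares between all groups and the adjustment over all genes. Without fasted knockout replicates 1 and 2 together, which leaves replicate 3 as the single fasted knockout array, the difference was 3.12 (adjusted p = 0.0108). In every fit that leaves out both replicates, that lone array is assumed to vary as the arrays of the other groups do.

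Gadd45b was 3.31-fold lower in fasted knockout than in fasted wild type (log2 -1.73, SE 0.37, adjusted p = 0.0214). Among all genes 4.43% were called lower in this comparison, and 33% had arrays that did not overlap. Without replicates 1 and 2 of fasted knockout the limma difference was -1.09 (adjusted p = 0.108), and with the clock score in the fit it was -1.08 (0.288). The call was also lost without fasted wild type replicate 1 (adjusted p = 0.0644), 2 (0.0602) or 3 (0.0572). In the fed state, the knockout arrays at 6.31 and 6.28 lay above the wild type arrays at 5.44 and 6.14. That difference was 0.51 (SE 0.46, 95% confidence interval -0.51 to 1.53) and was not called (adjusted p = 0.835). The fit called 0.0861% of all genes in the fed state and 0 of the 2 Gadd45 genes, with 0 of them at an unadjusted p under 0.05. Fed arrays did not overlap for 39.9% of all genes.

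The fasting difference of Gadd45b was smaller in knockout than in wild type (interaction -2.24, SE 0.59), but the interaction missed the threshold in limma (adjusted p = 0.0832). Every pairwise gap of a fasted to a fed array was smaller in knockout than any in wild type. Such gaps were without overlap for 22.4% of all genes. Of all genes 2.11% were called for the interaction, and 0 of the 2 Gadd45 genes, of which Gadd45b had an unadjusted p under 0.05. The interaction was called without fasted knockout replicate 3 (-2.55, adjusted p = 0.0477).

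**Figure D1:**
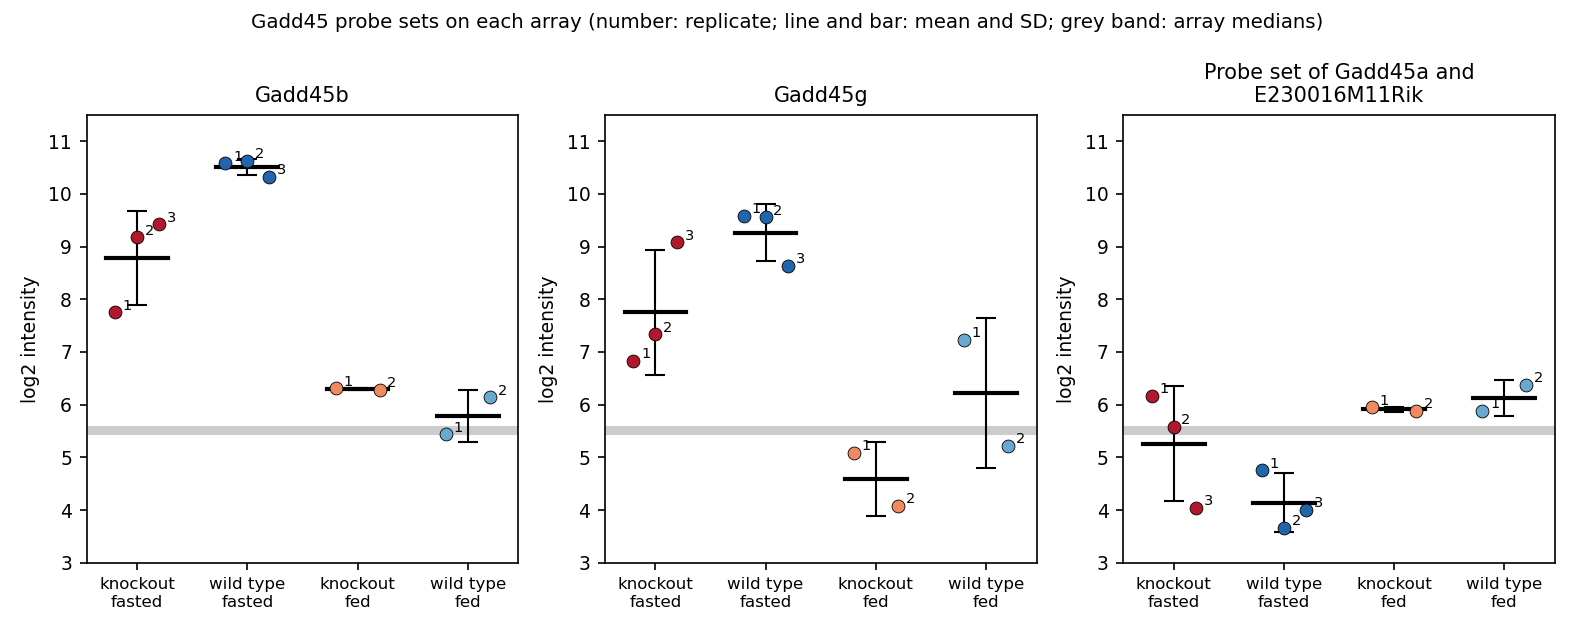
Each panel plots log2 intensity (vertical axis) for 1 probe set, with a point per array labelled by its replicate number, a line at the group mean, a bar for the SD (n = 3 fasted, n = 2 fed) and a grey band for the range of array medians. Gadd45b lies between 10.33 and 10.62 in fasted wild type and between 7.75 and 9.42 in fasted knockout, and the shared probe set is low on the wild type fasted arrays and on fasted knockout replicate 3.

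Gadd45g, the family member first described as cytokine-responsive, was higher after the fast in both genotypes, and the rise was called in wild type only. Its arrays scattered widely, most of all in fed wild type (SD 1.42). Fasted knockout arrays read 6.84, 7.34 and 9.08, and fasted wild type arrays 9.59, 9.55 and 8.63. Fed knockout arrays read 5.09 and 4.09, and fed wild type arrays 7.23 and 5.22. Fasted knockout replicate 3 fell within the range of fasted wild type, and fed wild type replicate 1 lay near fasted knockout replicates 1 and 2. Both fed knockout arrays and fed wild type replicate 2 lay below the array median.

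In wild type Gadd45g averaged 9.26 ± 0.54 fasted (SD, n = 3) and 6.22 ± 1.42 fed (SD, n = 2). It rose 8.19-fold (log2 3.03, SE 0.72, adjusted p = 0.0160), the 20th highest difference of all genes. The call ended when replicate 2 of fed wild type was left out (2.03, adjusted p = 0.117), the lower of the fed arrays, and without replicate 1 the difference was 4.04 (adjusted p = 0.0172). Adding the clock score to the fit also ended the call (1.49, adjusted p = 0.251).

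In knockout Gadd45g averaged 7.75 ± 1.18 fasted (SD, n = 3) and 4.59 ± 0.71 fed (SD, n = 2). Against the floor, the fasted level was at least 4.74-fold above the fed level. The fitted difference of 3.16 (SE 0.72) was the highest of all 13942 genes in this comparison, a rank that rests on fed readings below the floor. The bound of 4.74-fold is under the 5.60-fold rise of Gadd45b. In limma the fitted difference missed the threshold (adjusted p = 0.0600). Its unadjusted p was 0.00146, where 19.2% of all genes had one under 0.05. The groups did not overlap, as for 36.8% of all genes. Without replicate 3 the difference was 2.50, and without replicates 1 and 2 together it was 4.49, with 1 fasted knockout array left.

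Between genotypes no difference of Gadd45g was called. In the fasted state it was -1.51 (SE 0.64, 95% confidence interval -2.95 to -0.07, adjusted p = 0.156), and the groups overlapped through replicate 3. Without that array it was -2.17 and was called (adjusted p = 0.0413), and without replicates 1 and 2 it was -0.18 (adjusted p = 0.929). In the fed state the knockout arrays were lower, at least 1.64-fold against the floor (fitted -1.64, SE 0.79, adjusted p = 0.615). That bound rests on fed wild type replicate 1, since replicate 2 was also below the array median, and the difference was -0.63 without replicate 1 and -2.64 without replicate 2. The interaction was 0.13 with a wide 95% confidence interval, -2.15 to 2.41 (adjusted p = 0.959).

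In wild type the shared probe set of Gadd45a and E230016M11Rik fell with the fast, the other way from Gadd45b and Gadd45g. In knockout its fasting difference was not called, and fasted replicate 1 lay above both fed arrays. Fasted knockout arrays read 6.16, 5.58 and 4.05, and fasted wild type arrays 4.75, 3.67 and 4.01. Fed knockout arrays read 5.95 and 5.88, and fed wild type arrays 5.88 and 6.37. The fed arrays, and fasted knockout replicates 1 and 2, lay just above the array median, while all 3 fasted wild type arrays and fasted knockout replicate 3 lay below it. This probe set was tested in a fit that added the probe sets with several symbols, 15067 features in all.

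In wild type the shared probe set averaged 4.14 ± 0.55 fasted (SD, n = 3) and 6.13 ± 0.35 fed (SD, n = 2). It fell at least 1.51-fold against the floor (fitted -1.99, SE 0.53, adjusted p = 0.0264), where 12.8% of these features were called lower and 20.8% in either direction. The adjusted p was 0.0835 or 0.131 when fed wild type replicate 1 or 2 was left out, 0.0793 or 0.0689 when fasted wild type replicate 2 or 3 was left out, and 0.0603 with no filter on dim probe sets. A second probe set, which named E230016M11Rik alone, was also lower in fasted wild type, at 5.15, 4.44 and 4.91, against 6.15 and 5.94 fed. That one fell at least 1.43-fold against the floor (fitted -1.21, SE 0.28, adjusted p = 0.0135), a call that ended on omission of replicate 1 of fed wild type (adjusted p = 0.0929). The array design here does not tell how much of the shared signal belongs to Gadd45a.

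In knockout the shared probe set was not called after the fast (-0.65, SE 0.53, 95% confidence interval -1.84 to 0.53, adjusted p = 0.538), where 1.25% of these features were called. Omission of 1 array gave -1.10 to -0.045, and omission of fasted knockout replicates 1 and 2 gave -1.87. The difference of fasted knockout minus fasted wild type was 1.12 (SE 0.47, adjusted p = 0.157), where 10.7% were called. Without fasted knockout replicate 3 it was 1.73 (adjusted p = 0.0133), and without replicates 1 and 2 it was -0.10 (adjusted p = 0.925), so that its direction turned with the arrays retained. In the fed state it was -0.21 (SE 0.58, adjusted p = 0.963), where 0.0796% were called, and the interaction was 1.33 (SE 0.75, adjusted p = 0.356), where 1.91% were called.

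**Figure D2:**
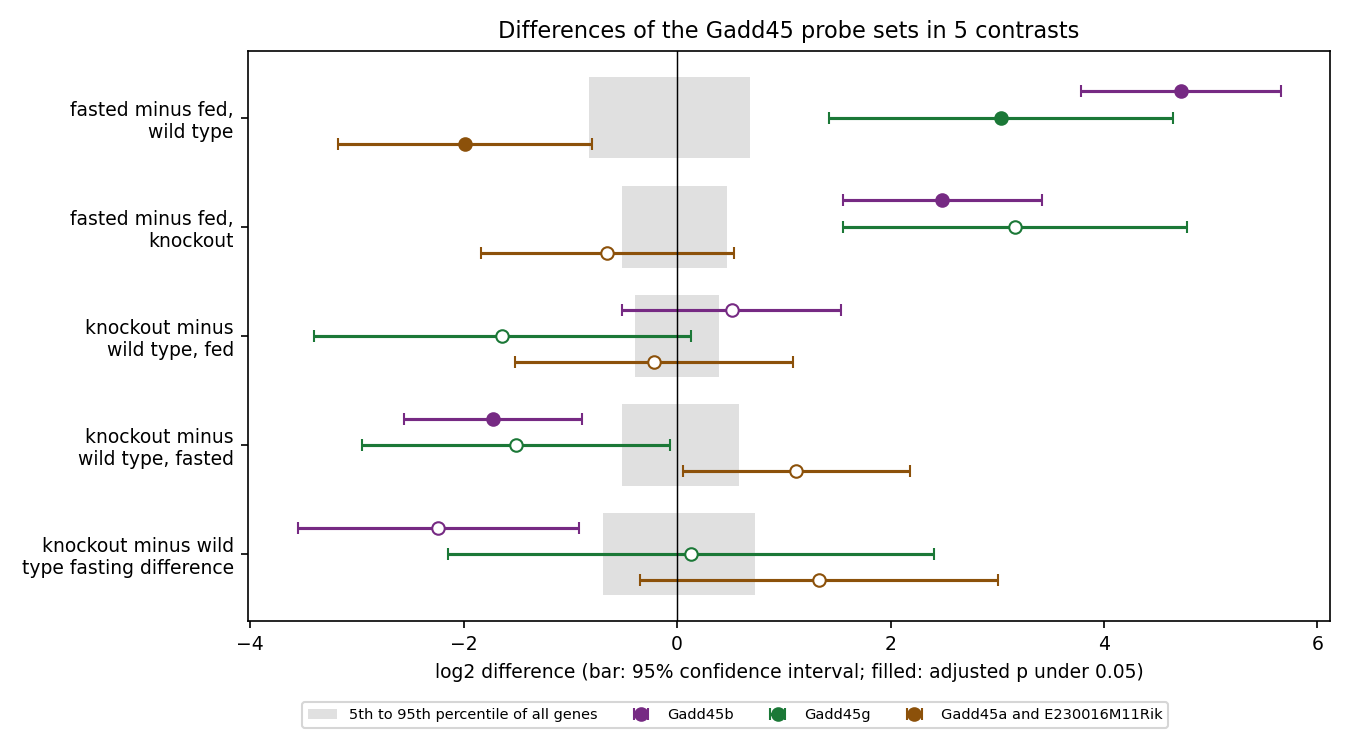
The horizontal axis gives the log2 difference of each Gadd45 probe set in 5 contrasts, with its 95% confidence interval, against a grey bar from the 5th to the 95th percentile of all genes tested. Filled points passed an adjusted p of 0.05: Gadd45b at 4.72, 2.49 and -1.73, Gadd45g at 3.03 and the shared probe set at -1.99.

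The 3 fasted knockout arrays ordered the members differently. For Gadd45b, replicates 2 and 3 were close (9.18 and 9.42) and replicate 1 lay apart at 7.75. For Gadd45g and the shared probe set, replicate 3 lay apart (9.08 and 4.05) and replicates 1 and 2 were nearer each other (6.84 and 7.34, then 6.16 and 5.58). The clock genes Arntl and Dbp divided the arrays as Gadd45g did, and so did the cell cycle inhibitor Cdkn1a, which encodes p21, a GADD45 binding partner. Other clock genes did not all do so. Per1 read 8.34, 8.89 and 8.63 in fasted knockout. Cry2 read 7.96, 7.94 and 7.37, with replicate 3 farthest from fasted wild type (8.11, 8.06 and 8.13). Cdkn1a read 5.26, 6.27 and 10.84 in fasted knockout, against 11.30, 11.29 and 11.39 in fasted wild type, and was chosen here after its values were seen. Dbp, a clock output gene, read 10.05, 9.80 and 6.00 in fasted knockout, against 6.07, 6.58 and 6.64 in fasted wild type. In a fit that held the clock score as a covariate, the difference of fasted knockout minus fasted wild type was -1.08 for Gadd45b (adjusted p = 0.288), -0.07 for Gadd45g (0.971) and -0.07 for the shared probe set (0.954).

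**Figure D3:**
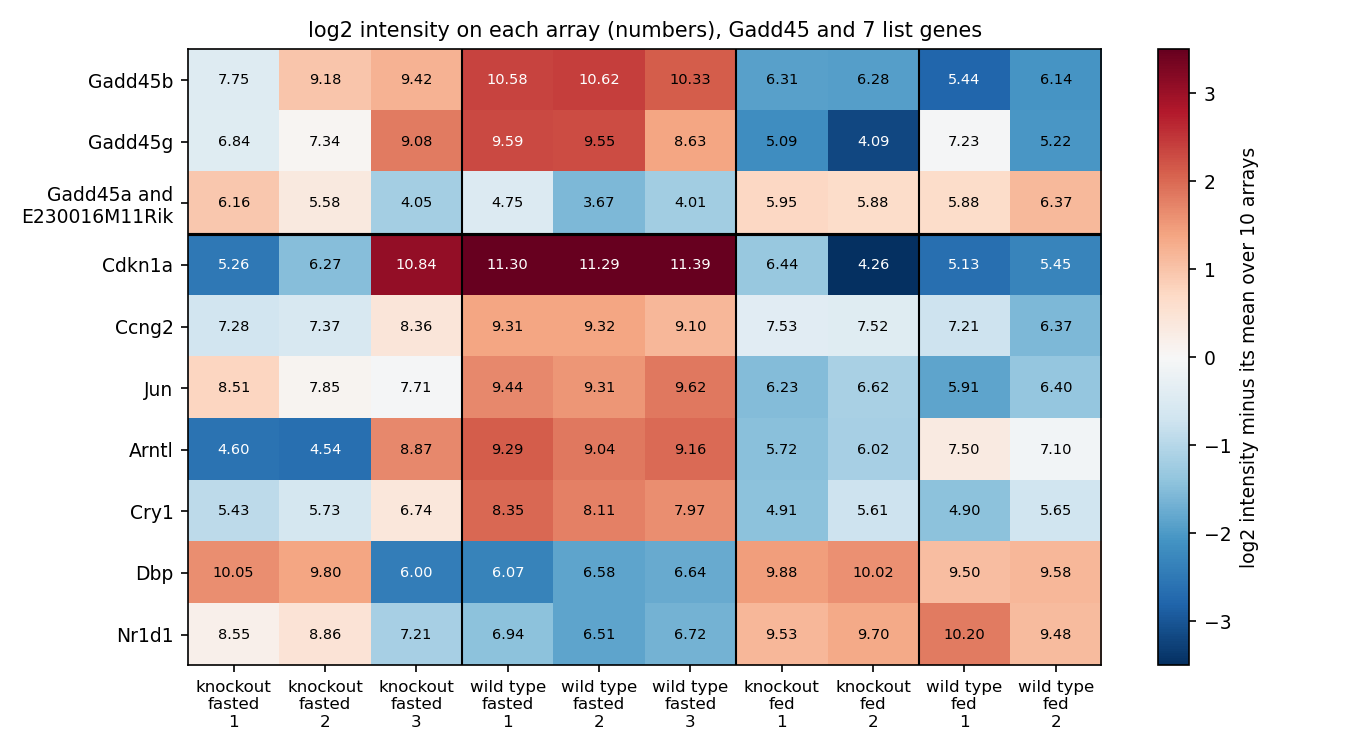
Rows are the Gadd45 probe sets and 7 genes of the lists, columns are the 10 arrays, the printed number is the log2 intensity and the colour is its distance from the mean of the row. Fasted knockout replicate 3 resembles fasted wild type in Cdkn1a (10.84), Arntl (8.87), Dbp (6.00) and Gadd45g (9.08), while replicates 1 and 2 do not, and Gadd45b is at 9.18 on replicate 2 and 9.42 on replicate 3.

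The summed intensity of 8 macrophage markers was 3649 to 4172 in fasted knockout, 3019 to 3200 in fasted wild type, 3466 to 3748 in fed knockout and 3298 to 4029 in fed wild type. In fasted knockout 4 of the 8 were called higher than in fasted wild type (Adgre1, Cd5l, Csf1r and Cd68), where 6.68% of all genes were called higher. In wild type 2 of 8 fell with the fast (Adgre1 and Csf1r), where 13.2% of all genes were called lower and 8.23% higher. In the same comparison 1 of 8 hepatocyte markers (Ass1) and 2 of 7 tested stellate markers (Lrat and Col3a1) fell. Of endothelial markers 1 of 8 rose (Pecam1). Of neutrophil markers 1 of 8 passed the filter, with sums between 126 and 177 over all arrays. The part of other cells in the Gadd45 values was not tested.

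The list of GADD45 partners and effectors, which leaves out Cdkn1a, was called about as often as all genes in wild type. Of its 24 genes 21 were tested, and 0 rose and 4 fell with the fast (median difference -0.20, against -0.02 over all genes), where 21.4% of all genes were called, 8.23% higher and 13.2% lower. The 4 were Map3k4, the kinase that GADD45 proteins activate (-0.51, SE 0.14, adjusted p = 0.0280), Map2k6, a p38 kinase kinase below it (-1.32, SE 0.33, adjusted p = 0.0197), the replication clamp gene Pcna (-0.53, SE 0.10, adjusted p = 0.00725) and Gadd45gip1, which encodes a GADD45 binding protein of mitochondria (-0.50, SE 0.14, adjusted p = 0.0301). In knockout 1 of 21 was called, Map2k6, which fell by 1.71 (SE 0.33, adjusted p = 0.0440), where 1.68% of all genes were called and 0.868% called lower. It read 6.93, 6.30 and 5.84 in fasted knockout, against 8.17 and 7.95 in fed knockout. These arrays did not overlap, as for 36.8% of all genes. Fabp1, the fatty acid binding protein gene, lay between 12.06 and 12.32 on all 10 arrays.

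Between fasted groups 2 of these 21 were called, both higher in knockout, where 11.1% of all genes were called and 6.68% called higher. Pcna was 0.49 higher (SE 0.09, adjusted p = 0.0145) and Gadd45gip1 0.45 higher (SE 0.13, adjusted p = 0.0495). The call of Gadd45gip1 was lost in 9 of the 10 omissions of 1 array and in 16 of 22 alternatives, and that of Pcna in 2 of the omissions. Pcna read 8.97, 8.84 and 8.79 in fasted knockout, against 8.38, 8.44 and 8.31 in fasted wild type, so replicate 3 stood with the other fasted knockout arrays. Fed groups differed in 0 of 21 by limma, with Nr1i3 and Map2k6 at an unadjusted p under 0.05 (0.0130 and 0.0474), as had 8.63% of all genes. The gene Nr1i3 encodes the receptor CAR, which GADD45B is known to assist.

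Among regulators that act on Gadd45 genes, Jun and Myc rose in both genotypes, with knockout calls that depended on single arrays. Of 32 listed genes 27 were tested, and in wild type 9 rose and 2 fell (median 0.21), where 8.23% of all genes were called higher and 13.2% lower. Jun, an AP-1 subunit, rose by 3.30 (SE 0.24, adjusted p = 0.000218), Cebpb by 1.91 (SE 0.20, adjusted p = 0.000587), Cebpd by 1.68 (SE 0.26, adjusted p = 0.00251) and Foxo1, a forkhead factor restrained by insulin, by 1.13 (SE 0.13, adjusted p = 0.000779). In knockout 2 of 27 rose, Jun by 1.60 (SE 0.24) and Myc, a factor that represses Gadd45a, by 1.69 (SE 0.28), each with an adjusted p of 0.0323, where 0.811% of all genes were called higher. In wild type Myc rose by 1.36 (adjusted p = 0.00955). Of the 10 omissions of 1 array, 6 ended the knockout call of Jun and 7 that of Myc. Rela, the NF-kB subunit p65, had a difference of 0.37 there (adjusted p = 0.106).

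Jun read 8.51, 7.85 and 7.71 in fasted knockout, against 9.44, 9.31 and 9.62 in fasted wild type, and replicate 3 was the lowest. The fasted groups did not overlap, as for 33% of all genes. Jun was 2.70-fold lower in fasted knockout (log2 -1.43, SE 0.22, adjusted p = 0.00781), and this call held in each of the 10 omissions of 1 array. Of the 27 regulators 0 were higher and 5 lower in fasted knockout, where 6.68% of all genes were called higher and 4.43% lower, among them Atf3 (-1.65, SE 0.34, adjusted p = 0.0180), Foxo1 (-0.60, SE 0.12, adjusted p = 0.0170) and Rela (-0.43, SE 0.09, adjusted p = 0.0232). The interaction was called for Jun (-1.70), Foxo1 (-1.25) and Cebpb (-1.45), where 0.789% of all genes were called with a negative interaction and 1.32% with a positive one. In the fed state 0 of 27 were called by limma, and Atf3, Atf4, Cebpb, Foxo1, Ppara, Rela and Smad2 had an unadjusted p under 0.05, which 8.63% of all genes had. Cebpb read 8.77 and 8.01 in fed knockout, against 7.24 and 7.28 in fed wild type (difference 1.13, adjusted p = 0.180), and Foxo1 9.88 and 9.83 in fed knockout, against 9.29 and 9.11 in fed wild type (0.66, adjusted p = 0.204).

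Other growth arrest and damage-responsive genes moved in both directions. Of 30 listed genes 26 were tested, and in wild type 9 rose and 5 fell with the fast (median 0.32), where 8.23% of all genes were called higher and 13.2% lower. Ccng2, a cyclin G gene activated by FOXO factors, rose by 2.45 (SE 0.32, adjusted p = 0.00124), Plk3 by 1.69 (SE 0.22, adjusted p = 0.00122) and Btg2, an antiproliferative gene induced by p53, by 1.31 (SE 0.13, adjusted p = 0.000453). Ccng1, a p53 target, fell by 0.80 (SE 0.10, adjusted p = 0.00109). Cdkn1a rose at least 57.1-fold against the floor (adjusted p = 0.0116), a call that ended on omission of 1 fed wild type array, replicate 1 (adjusted p = 0.0718). With the clock score in the fit its difference was 2.37, against 6.03 without it, and was not called (adjusted p = 0.107).

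In knockout 2 of these 26 rose and 1 fell, where 1.68% of all genes were called. Btg2 rose by 1.30 (SE 0.13, adjusted p = 0.00797), close to its wild type value, and read 7.43, 7.55 and 7.75 in fasted knockout, against 6.29 and 6.27 in fed knockout. Plk3 rose by 1.14 (SE 0.22, adjusted p = 0.0440) and Gas2 fell by 0.92 (SE 0.19, adjusted p = 0.0483). The call of Btg2 was lost in 1 of the 10 omissions, that of fed knockout replicate 2 (adjusted p = 0.0870), and those of Plk3 and Gas2 in 9 each. Between fasted groups 2 were higher and 3 lower in knockout, where 11.1% of all genes were called. Ccng1 was higher (0.54, SE 0.09, adjusted p = 0.0101), and Klf6 (-1.08, SE 0.19, adjusted p = 0.0105) and Ccng2 (-1.57, SE 0.29, adjusted p = 0.0126) were lower. The interaction was called for Ccng2 (-2.31) and Ccng1 (0.77), and 0 of 26 were called between fed groups by limma, with Ddit3, Klf10, Plk2, Ppp1r15a and Trib3 at an unadjusted p under 0.05, against 8.63% of all genes.

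Of the 74 genes tested over the 3 lists, 29 were called in wild type fasting (21.4% of all genes), 6 in knockout fasting (1.68%), 0 between fed groups (0.0861%), 12 between fasted groups (11.1%) and 6 for the interaction (2.11%). Without fed wild type replicate 1 or 2 the wild type count was 16 or 17. The knockout count was 1 without fed knockout replicate 1, 0 without replicate 2, 1 without fasted wild type replicate 2 or 3, 2 without fasted knockout replicate 2 and 1 without replicate 3. The count between fasted groups was 7, 7 and 5 without fasted wild type replicates 1, 2 and 3, and 3 without fasted knockout replicate 1. The count between fed groups was 1 without fed wild type replicate 1. Without fasted knockout replicates 1 and 2 together, the counts between fasted groups and for the interaction were 0, with 1 fasted knockout array left.

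**Figure D4:**
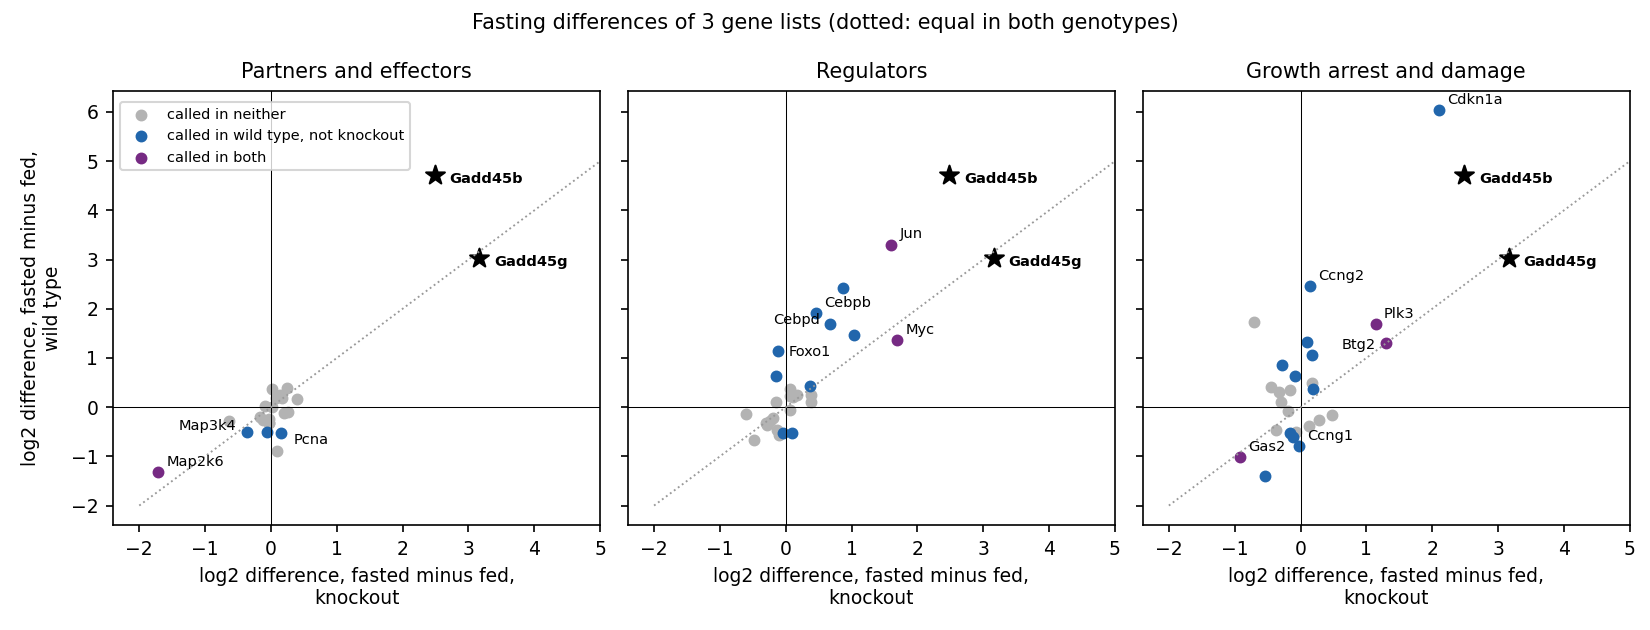
Each point is a gene of 1 of the 3 lists, with its log2 difference of fasted minus fed in knockout on the horizontal axis and in wild type on the vertical axis, and stars mark Gadd45b and Gadd45g. Map2k6 lies lowest among the partners (-1.71 and -1.32), Jun lies at 1.60 and 3.30, and Btg2 lies on the dotted line of equal differences (1.30 and 1.31).

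Genes with the most similar profile were ranked by the root mean square difference over the 10 arrays, after each gene was centred on its own mean. Gm, Rik, Mir, Snor, Olfr and Vmn symbols and probe sets with several symbols were left out when the nearest genes were named. E230016M11Rik was thereby left out for the shared probe set. For Gadd45b they were Acot1 (0.46), Acot2 (0.47), Rgs1 (0.65), Cidec (0.66) and Plin4 (0.68), in log2 units. The acyl-CoA thioesterase gene Acot2 read 10.43, 11.76 and 11.54 in fasted knockout, against 13.10, 13.18 and 13.73 in fasted wild type. Fed knockout arrays read 9.73 and 9.39, against 9.10 and 9.17 in fed wild type, and fasted knockout replicate 1 was again the low fasted array. Acot1 and Acot2 are near-identical copies and may share probes. In an order of all 13941 other genes tested, with no symbols left out, Gadd45g was 23rd for Gadd45b, at 1.04.

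For Gadd45g the nearest genes were Rgs1 (0.88), E2f8 (0.95), Il1b (0.98), Hopx (1.02) and Acot2 (1.04), all farther away than the nearest of Gadd45b. Gadd45b came 6th for Gadd45g in the order with no symbols left out. For the shared probe set the nearest were Fam47e (0.24), Klhl33 (0.36), Hes6 (0.36), Gna14 (0.38) and Tert (0.38). Tert, the telomerase reverse transcriptase gene, read 7.52, 7.26 and 6.19 in fasted knockout, against 5.46, 4.95 and 5.17 in fasted wild type. Fed knockout arrays read 7.75 and 7.44, against 7.58 and 7.59 in fed wild type. These distances describe 10 arrays that share 4 groups, and the choice of genes rests on the same arrays.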

How the data were processed

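Total RNA (miRNeasy) was hybridised to 10 arrays. In the deposited table every probe set has a normalized linear intensity for each array, and the submitters' processing notes name RMA and Affymetrix Expression Console. Neither a version nor a build is named in the labels. Deposited intensities were taken to log2 and normalized no further. Probe sets that exceeded the 50th percentile of their array on 2 arrays or more were kept, and the brightest with 1 symbol stood for its gene (13942 genes). The Gadd45a row carries 2 symbols and was tested in a fit that added such probe sets, chosen after seeing the data. Group means were fitted with limma 3.58.1 in R 4.3.3 (prior degrees of freedom 3.63, residual 6), with no batch or pairing term, with Benjamini-Hochberg adjustment across all features. The fit was also run on simulated data with independent noise and with shifts in fasted wild type only. That simulation holds no differences shared by many genes between arrays of a group, so it cannot speak to such differences here. A group wholly at or below the array median gave a lower bound on the fold. Members, lists and motifs were chosen with earlier results of these data known. In each list up to 4 genes with the smallest p per contrast were named, and 5 genes of most similar profile per member. The alternatives covered centring, repeated quantile normalization, filters (none, 70th percentile), mean of probe sets, trend and robust moderation, array weights, replicate block, groups of 1 contrast, a pseudocount of 16, the clock score, and the omission of arrays. Precision is limited by the number of arrays.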

Additional observations from a re-analysis of the deposited data

Results flagged for a closer look

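The fasting difference of 6 genes of the lists differed between knockout and wild type by the interaction test of limma. These were Foxo1 (log2 -1.25, SE 0.19, adjusted p = 0.0264), Ccng1 (0.77, SE 0.14, adjusted p = 0.0370), Jun (-1.70, SE 0.35, adjusted p = 0.0426), Cebpb (-1.45, SE 0.29, adjusted p = 0.0426), Ccng2 (-2.31, SE 0.45, adjusted p = 0.0426) and Pcna (0.69, SE 0.15, adjusted p = 0.0488). With 1 of the 10 arrays omitted at a time, calls ended in 5 omissions for Foxo1, 8 for Ccng2, 9 for Jun and Ccng1, and 10 for Pcna and Cebpb. No test of single outlying arrays was made, since the groups hold 2 or 3 arrays.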

How the results depend on the processing

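Over 15 results of the Gadd45 probe sets and 325 alternative values, 288 kept their direction and their side of the threshold, 24 lost a call, 5 gained one and 8 turned direction. With the clock score as a covariate, calls were lost for fasting in wild type of Gadd45g (1.49) and the shared probe set (-0.71), for fasting in knockout of Gadd45b (2.26) and for fasted knockout minus fasted wild type of Gadd45b (-1.08), and the shared probe set turned in that comparison (-0.069). Without fasted knockout replicates 1 and 2 together, the last 2 were -1.09 (lost) and -0.10 (turned). With no filter, calls were lost for fasting in wild type of the shared probe set (-1.99), fasting in knockout of Gadd45b (2.49) and its fasted genotype difference (-1.73). Fitting the knockout groups alone also lost the call of Gadd45b in knockout fasting (2.49). Gadd45g in knockout fasting was called with a stricter filter (3.16) and array weights (3.14). The interaction of Gadd45g turned with a pseudocount of 16 (-0.21). The cause of these changes was not tested.

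Omitting 1 array gave, in wild type fasting, 2.03 to 4.04 for Gadd45g and -2.29 to -1.74 for the shared probe set. In knockout fasting it gave 2.17 to 3.00 for Gadd45b. Fasted genotype differences ran from -2.04 to -1.21 for Gadd45b, -2.17 to -1.05 for Gadd45g and 0.67 to 1.73 for the shared probe set, whose fed difference ran from -0.46 to 0.031, the last without fed wild type replicate 2. The interaction ran from -2.59 to -1.72 for Gadd45b and from -0.88 to 1.13 for Gadd45g, turning without fed wild type replicate 1 (-0.88), replicate 2 of fed knockout (-0.37), replicate 3 of fasted wild type (-0.18) or fasted knockout replicate 3 (-0.54).

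The labels do not say whether replicate numbers pair the samples. Of 13 same-numbered pairs, 1 correlated above 0.1 in deviations from group means (-0.17 to 0.11). In a group of 2 arrays these deviations mirror each other, so the correlations are not independent and cannot decide on pairing. With the replicate block, Gadd45b in knockout fasting was 2.37 (adjusted p = 0.0826), a lost call, and no other call of a Gadd45 probe set changed. With the numbers of fed knockout crossed in the block, as without crossing, 0 genes were called between fed groups.

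Called genes of the 3 lists numbered 29 in wild type fasting and 10 with the clock score, with 16 to 30 over omissions of 1 array. In knockout fasting they numbered 6, against 1 with no filter, 0 with the replicate block, 2 with the clock score, 1 with the knockout groups alone and 0 to 5 over omissions. Between fed groups the count was 0 to 1 over omissions. Between fasted groups it was 12, against 7 with no filter, 0 with the clock score, 0 without fasted knockout replicates 1 and 2 together and 3 to 16 over omissions. For the interaction it was 6, against 0 with no filter, 1 with the replicate block, 0 with the clock score, 0 without those replicates and 0 to 5 over omissions. Over all genes the count ranged from 870 to 3256 (main 2990), 0 to 504 (234), 0 to 24 (12), 6 to 1968 (1549) and 0 to 520 (294) in the same 5 comparisons. The stricter filter left out the shared probe set.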
